A study of Homo sapiens and Mus musculus with 9 samples.

Results

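The 641 sites described here are HepG2 peaks in protein-coding genes that have no counterpart in the wild-type-named LS174T list. They were taken from an eCLIP study of the pregnane X receptor (PXR, gene NR1I2), in which RNA crosslinked to protein by UV light was digested with RNase I, immunoprecipitated and sequenced. A peak was taken when its summit lay in the span of a protein-coding gene and in no span of a lncRNA, pseudogene or small RNA gene, and when it shared no base with an LS174T peak on the same strand. Of the 1557 peaks of the HepG2 list, 1058 were such coding peaks and 641 of these (60.6%) had no LS174T counterpart. They make up 641 of the 5884 peaks in the 4 lists of the series. The members were thus chosen by measured values, the positions of called peaks in both lists, so the absence of an LS174T peak is a description and not a finding.

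HepG2, a human hepatocellular carcinoma line, was represented by 2 immunoprecipitates (IPs) of PXR made with an antibody to the HA tag and by 1 input. LS174T, a human colorectal adenocarcinoma line, gave an input and an IP of wild-type cells and a further IP of cells without PXR, both IPs made with an antibody to PXR. The remaining 3 of the 9 samples were an input and 2 IPs from livers of mice carrying human PXR, whose list was not used here. The HepG2 group has 1 peak list for its 2 IPs, and whether the libraries were pooled is not stated. The LS174T list whose name and peak names read wild-type IP is assigned in the record to the wild-type input, and the list named for the knockout IP is assigned to the wild-type IP. They are called the WT-named and KO-named list, and no contrast of genotype, or of IP with input, is drawn from them. The sources used here do not say how the HA tag was introduced. The lists carry nothing library by library, so the replicate error cannot be had and no test between groups was possible. Intervals below are exact 95% binomial (Clopper-Pearson) or exact Poisson intervals, which cover counting error only, and PCR copies among the reads would make them too narrow.

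PXR is a nuclear receptor that binds drugs, bile acids and other small molecules and, with its partner RXR, activates genes of drug metabolism in liver and intestine. In an eCLIP experiment a peak marks a place where sequenced RNA fragments pile up, and abundant RNAs can give peaks without being specific targets. A peak list therefore reports where fragments were found, and not how much RNA a cell holds. In these bulk libraries fewer cells of a type and less RNA per cell cannot be told apart. Positions are 1-based and refer to hg38, and gene positions and sequences come from RefSeq on GRCh38.p14.

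Some of the sites can be tied to sequence. The first pair below are mature microRNAs close to HepG2-only peaks described further on, with the seed (bases 2 to 8) in capitals. A stack of 17 reads within NGB begins at the first base of miR-1260a, and 5 peaks of VMP1 lie just upstream of the miR-21 hairpin.
hsa-miR-1260a, chr14:77266231-77266248, plus strand: aUCCCACCucugccacca
hsa-miR-21-5p, chr17:59841273-59841294, plus strand: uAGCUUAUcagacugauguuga

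The next 5 sequences are the 250 bases before the start of genes whose HepG2-only peak lies within 500 bp past that start. They are the 3 deepest outside the histone genes and the 2 deepest histone genes. Those 2 histone genes, H3C7 and H4C4, are 494 and 403 bp long, so any summit within them lies that near. The capitals mark 3 motifs on either strand, namely GGGCGG of the SP-family factors, then CCAAT of the factor NF-Y, and lastly TATAAA of the TATA box.
HSPB1 promoter, chr7:76302423-76302672, plus strand: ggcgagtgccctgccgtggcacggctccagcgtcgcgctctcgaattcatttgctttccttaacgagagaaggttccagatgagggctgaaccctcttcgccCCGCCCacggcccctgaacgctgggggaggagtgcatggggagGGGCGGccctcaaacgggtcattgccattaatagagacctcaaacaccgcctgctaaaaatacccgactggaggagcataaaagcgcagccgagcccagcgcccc
BAMBI promoter, chr10:28677271-28677520, plus strand: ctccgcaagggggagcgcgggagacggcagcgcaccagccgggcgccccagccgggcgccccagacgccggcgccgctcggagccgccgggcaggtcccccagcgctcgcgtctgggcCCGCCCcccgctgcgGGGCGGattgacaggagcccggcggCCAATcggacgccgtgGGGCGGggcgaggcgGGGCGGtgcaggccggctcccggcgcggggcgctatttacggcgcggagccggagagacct
XBP1 promoter, chr22:28800570-28800819, minus strand: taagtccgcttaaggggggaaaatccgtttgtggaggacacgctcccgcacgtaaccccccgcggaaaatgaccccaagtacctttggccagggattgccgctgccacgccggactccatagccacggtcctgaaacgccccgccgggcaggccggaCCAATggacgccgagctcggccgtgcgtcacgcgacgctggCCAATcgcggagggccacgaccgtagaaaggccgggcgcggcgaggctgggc
H3C7 promoter, chr6:26250636-26250885, minus strand: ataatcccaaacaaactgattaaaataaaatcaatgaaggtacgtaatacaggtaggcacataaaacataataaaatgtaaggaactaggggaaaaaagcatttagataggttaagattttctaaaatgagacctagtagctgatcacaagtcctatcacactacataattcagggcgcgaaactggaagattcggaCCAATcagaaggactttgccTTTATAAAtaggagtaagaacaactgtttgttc
H4C4 promoter, chr6:26189113-26189362, minus strand: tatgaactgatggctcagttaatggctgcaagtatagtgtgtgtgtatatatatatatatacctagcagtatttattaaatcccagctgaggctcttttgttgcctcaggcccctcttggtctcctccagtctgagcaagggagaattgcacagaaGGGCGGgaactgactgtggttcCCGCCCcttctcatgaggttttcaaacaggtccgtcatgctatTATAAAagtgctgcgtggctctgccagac

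The HepG2-only coding peaks were mostly shallow. Reads at a summit, worked out here from the deposited fold enrichment and −log10 p, had a median of 9 (quartiles 6 and 13, range 3 to 263). The 417 coding peaks shared with LS174T had a median of 13 (quartiles 9 and 21), and the 1236 coding peaks found only in the WT-named LS174T list had a median of 10 (quartiles 7 and 17). The deposited fold, which is the authors' value per peak over local background, had a median of 6.45 among HepG2-only peaks and 7.81 among shared ones. In all, 361 of the 641 (56.3%, interval 52.4 to 60.2%) rested on fewer than 10 reads. Among the shallowest were sites of 3 reads in COX5A, a subunit of cytochrome c oxidase, and in NAPB, which encodes a SNAP protein of vesicle fusion.

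Whether a HepG2 coding peak lacked a partner moved with its depth. Of 224 coding peaks with 3 to 6 reads, 199 were HepG2-only (88.8%, interval 84.0 to 92.6%). The share was 61.1% at 7 to 9 reads, 58.2% at 10 to 14 and 48.6% at 15 to 24. It was 37.5% (33 of 88) at 25 to 49 reads. Only 3 of 27 coding peaks with at least 50 reads (11.1%, interval 2.35 to 29.2%) had no LS174T partner, namely those in HSPB1, CDC42SE1 and VMP1. The lists hold called peaks only, so the LS174T reads at these places are not known and a shallow HepG2-only peak is not shown to be absent from LS174T.

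**Figure D1:**
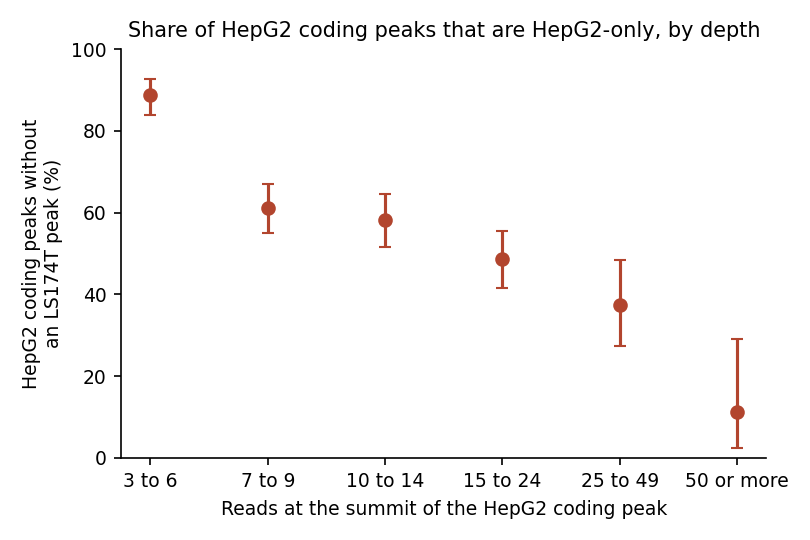
Percent of HepG2 coding peaks without an LS174T peak (y axis) by reads at the summit (x axis), with exact 95% binomial intervals. The share is 88.8% at 3 to 6 reads and 11.1% at 50 reads or more.

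The rule turns on an overlap of 1 base, and few sites lay near that edge. The HepG2-only peaks closest to an LS174T peak were in COP1, a ubiquitin ligase gene (7 reads, a gap of 5 bp), PTPA (18 reads, 10 bp) and USP9X (13 reads, 28 bp). The shared peaks with the shortest overlap were in PPP4R3A (11 reads, 9 bp shared) and ANP32E (6 reads, 11 bp shared). Of the 641 sites, 19 (2.96%) had a same-strand LS174T peak closer than 500 bp and 56 (8.74%) closer than 10000 bp. An LS174T peak elsewhere in the same gene was present for 98 (15.3%, interval 12.6 to 18.3%), and 543 lay in genes with no LS174T peak. Counted by gene, 535 of the 622 genes with a HepG2-only peak had no LS174T peak. Of all protein-coding genes only 6.56% had a coding peak of the LS174T list, so lacking one is the common state. An LS174T peak lay across the site on the other strand for 3, and none of the 641 overlapped any of the 46 KO-named peaks. Only 21 of those 46 are coding peaks. The overlap of the other HepG2 peaks with them is not given here, so this count does not set the sites apart.

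The deepest site lay in HSPB1, the gene of a small heat shock protein, at chr7:76302689-76303210 on the plus strand. It held 263 reads (Poisson interval 232 to 297) of 548 in its 10 kb window, with its summit 245 bp past the gene start. No LS174T peak was found in HSPB1. Sites next in depth that are known to lie on the strand of their gene held far fewer reads. VMP1, which encodes a membrane protein of autophagy, held 53 (39.7 to 69.3), GATA3 47 (34.5 to 62.5), SRRM2, which encodes a scaffold of nuclear speckles, 45, and BAMBI, a decoy receptor of TGF-beta signalling, 41 (29.4 to 55.6). The Poisson intervals of VMP1, GATA3 and BAMBI overlap, so their order is not settled. Of the reads in their windows, these peaks held 13.1% in VMP1, 10.1% in GATA3, 9.7% in SRRM2 and 33.1% in BAMBI.

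**Figure D2:**
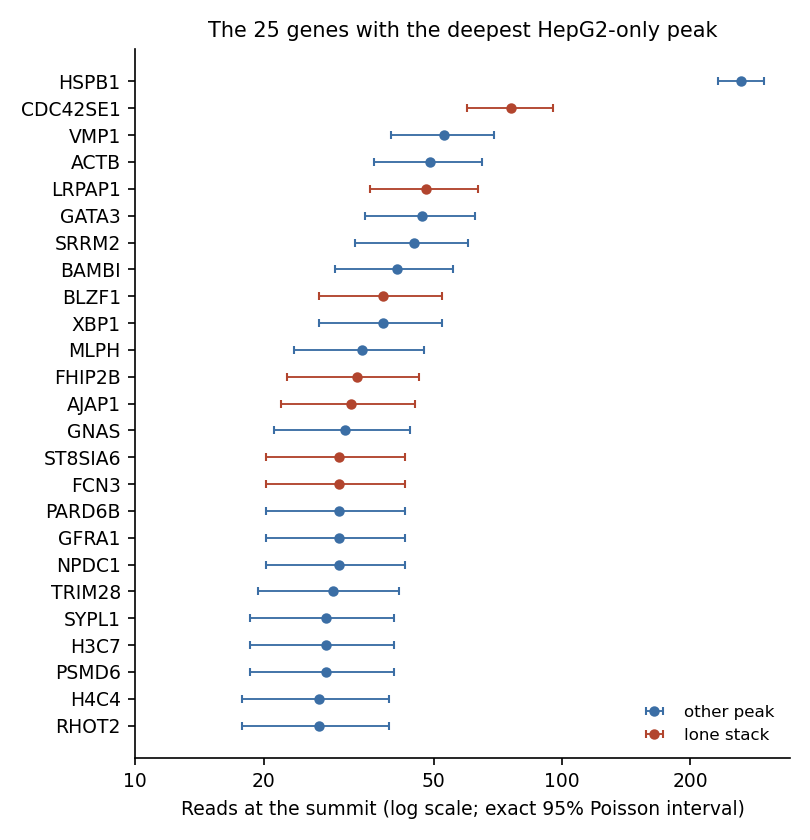
Reads at the summit (log x axis) of the deepest HepG2-only peak in each of the 25 genes with most reads, with exact 95% Poisson intervals, coloured by whether nearly all reads of the window lie in the peak. HSPB1 at 263 reads stands clear of CDC42SE1 at 76, while the intervals of neighbouring genes from CDC42SE1 downwards overlap.

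Several of the genes with most reads carried more than 1 HepG2-only peak. GATA3, a zinc finger factor of luminal breast epithelium and T cells, carried 3 HepG2-only peaks with 47, 40 and 20 reads. They lay 13137, 10433 and 28593 bp past the gene start. Their windows held 464, 405 and 155 reads. The folds of 4.67, 4.51 and 5.12 lay below the median of 6.45 for all HepG2-only peaks. XBP1, a factor of the unfolded protein response, carried a peak of 38 reads 201 bp past its start and a further peak of 14 reads 604 bp before its end. MLPH, which is not in the luminal epithelium list counted below, encodes melanophilin, an adaptor that links Rab27a vesicles to myosin. It carried 4 peaks with 34, 26, 22 and 16 reads, in windows of 355, 83, 103 and 98. GFRA1, a co-receptor for GDNF, held 30 and 13 reads, and STARD10, a lipid transfer protein gene, 24 and 21, and neither is in that list. GREB1, an oestrogen-responsive cofactor gene, held 22 and 16. None of GATA3, XBP1, MLPH, GFRA1, STARD10 and GREB1 had an LS174T peak. ESR1, the oestrogen receptor gene, held 1 peak of 9 reads on the strand of the gene and GRHL2, an epithelial transcription factor gene, 1 of 18.

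Counted over the list of luminal epithelium genes, 11 of 56 carried a HepG2-only peak (19.6%, interval 10.2 to 32.4%), against 3.1% of all 20056 protein-coding genes. Of these 11, 9 had no LS174T peak, and the exceptions were the cadherin gene CDH1 and the carbonic anhydrase gene CA12. The coding peaks of the LS174T list touched 16 of the 56, against 6.56% of all protein-coding genes. The list includes epithelial genes that many tissues transcribe, and its genes were chosen with earlier results of these data known.

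Hepatocyte markers were without peaks in the list labelled HepG2. None of 53 plasma protein genes, among them ALB, APOA1, SERPINA1 and TTR, carried any of its peaks, HepG2-only or shared (interval 0 to 6.72%). None of 37 genes of hepatocyte metabolism or identity, such as CPS1, CYP3A4 and HNF4A, did either (interval 0 to 9.49%). Taken alone, each interval includes the 5.45% of all protein-coding genes that held a HepG2 peak. Neither zero by itself therefore sets its list apart from other genes. The plan named the genes of both lists together as 1 set of hepatocyte markers, but no interval was worked out over both. Whether the joint absence is unusual was thus not tested, and the separate intervals do not show that it is ordinary. Of the same lists, 0 of 53 and 2 of 37 genes had a coding peak in the LS174T list. In the HepG2 list 21 of the 56 luminal epithelium genes and 4 of 36 colon epithelium genes held a peak. The only colon epithelium gene with a HepG2-only peak (1 of 36, interval 0.0703 to 14.5%) was CDH17, with 15 reads that were all the reads of their window, whereas 17 of the 36 had a coding peak in the LS174T list. Peak lists do not measure RNA level, and whether the libraries match their label was not tested. The sites are called HepG2 here after the name of the list.

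NR1I2 itself, at chr3:119782101-119818487, held no peak of the HepG2, WT-named or KO-named list within 5000 bp. Among PXR and its partners 4 of 27 genes carried a HepG2-only peak (14.8%, interval 4.19 to 33.7%, against 3.1% of all genes). Coding peaks of the LS174T list lay in 7 of the 27 (25.9%), against 6.56% of all genes. NCOA3, a coactivator of nuclear receptors, held 26 reads 399 bp past its start, and HSP90AA1, which encodes a chaperone that binds nuclear receptors, held 15. The coactivator gene PPARGC1A held 3. Among known transcription targets of PXR 2 of 36 carried one, 5.56% with an interval of 0.68 to 18.7% that includes the 3.1% of all genes. These were TSKU, a secreted proteoglycan gene, with 17 reads and POR, the P450 reductase gene, with 10. No cytochrome P450 gene of that list held any.

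Replication histone genes were the list with the largest share of HepG2-only peaks among the 21 lists counted. They encode the core and linker histones that package newly made DNA, and their short messages end in a stem-loop in place of a poly(A) tail. Of 69 measured, 18 carried such a peak (26.1%, interval 16.3 to 38.1%, against 3.1% of all genes), and 17 of these had no LS174T peak. Coding peaks of the LS174T list lay in 22 of the 69. H3C7 held 28 reads, H4C4 27, H4C8 26, the linker histone gene H1-5 22, and H3C8 20. The shallowest were H4C6 with 8 and H2AC14 with 6. All 16 whose gene strand is in the table lay on that strand. Their 18 peaks were 200 to 763 bp wide with a median of 412 bp, from 200 bp in H2AC14 to 763 bp in H1-5. Histone genes have near-identical copies, so which copy a read came from is uncertain.

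Glycolysis genes carried no HepG2-only peak, 0 of 22 (interval 0 to 15.4%), although 8 held a shared HepG2 peak and 14 a coding peak of the LS174T list. Shared coding peaks lay in 1.97% of all protein-coding genes. Ribosomal protein genes carried 4 of 80 (5.0%, interval 1.38 to 12.3%), with 13 reads in RPL30 and 12 in RPS14, against 53 of 80 with an LS174T peak. Translation factors carried 2 of 41, EIF4B, a helicase cofactor of initiation, with 9 reads and EIF3M with 3 on the strand opposite to the gene.

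Splicing factor genes carried 11 of 58 (interval of the share 9.87 to 31.4%). Beside its site of 45 reads SRRM2 held a further site of 20, RBM39 held 20, and SRSF1, an SR protein, 17. Of the 11, 5 had no LS174T peak. Chaperone genes carried 6 of 36, which after HSPB1 and HSP90AA1 were led by CCT7, a subunit of the cytosolic chaperonin, with 12 reads and CANX, the endoplasmic reticulum lectin chaperone gene, with 10. Actin and actin-binding genes carried 7 of 45, counting GSN, whose peak of 10 reads lies opposite to it and on the strand of RAB14. ACTB held 49 reads at a site 360 bp from an LS174T peak, and the gene also held 2 shared peaks and 4 LS174T peaks of up to 171 reads. TPM4, a tropomyosin gene, held 22 and 14 reads. Coding peaks of the LS174T list lay in 41.4% of the splicing factor genes and in 44.4% each of the chaperone and the actin genes. Of all protein-coding genes 6.56% held one.

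Against the 3.1% of all genes, intermediate filaments and tubulins carried a HepG2-only peak in 4 of 28 (14.3%, interval 4.03 to 32.7%), led by the keratin gene KRT80 with 20 reads and TUBB4B with 18. Membrane junction and polarity genes carried 6 of 46 (interval of the share 4.94 to 26.3%), counting CLDN1, whose peak lies opposite to the gene. PARD6B, a scaffold of the apical polarity complex, held 30 reads, CDH1, the epithelial cadherin gene, 17, and the plakophilin gene PKP4 14. Fatty acid and sterol synthesis genes carried 4 of 33 (12.1%, interval 3.4 to 28.2%), with 20 reads in SREBF1, the regulator of that pathway, and 14 in DHCR7, an enzyme of cholesterol synthesis. Ubiquitin and proteasome genes carried 5 of 44 (11.4%, interval 3.79 to 24.6%), with 14 reads in PSMB4 and 13 in UBB. Cell cycle genes carried 4 of 35 (11.4%, interval 3.2 to 26.7%), with 18 reads in the replicative helicase gene MCM7, 13 in the phosphatase gene CDC25B and 9 in the inhibitor gene CDKN1B. Coding peaks of the LS174T list lay in 32.1% of filament and tubulin genes and 52.2% of junction genes, against 6.56% of all genes. They lay in 24.2% of the fatty acid and sterol genes, 25.0% of the ubiquitin genes and 11.4% of the cell cycle genes.

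Immediate-early genes carried 3 of 32, JUNB and IER2 with 19 reads each and JUN with 12, and all 3 genes also had an LS174T peak elsewhere. Genes of the respiratory chain carried 4 of 47, led by COX8A with 20 reads, and chromatin regulators 5 of 68, led by SMARCA4 with 10 reads. For these 3 lists the interval includes the 3.1% of all genes. The same holds for ribosomal proteins, translation factors, glycolysis, plasma proteins, hepatocyte metabolism, colon epithelium and PXR transcription targets.

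**Figure D3:**
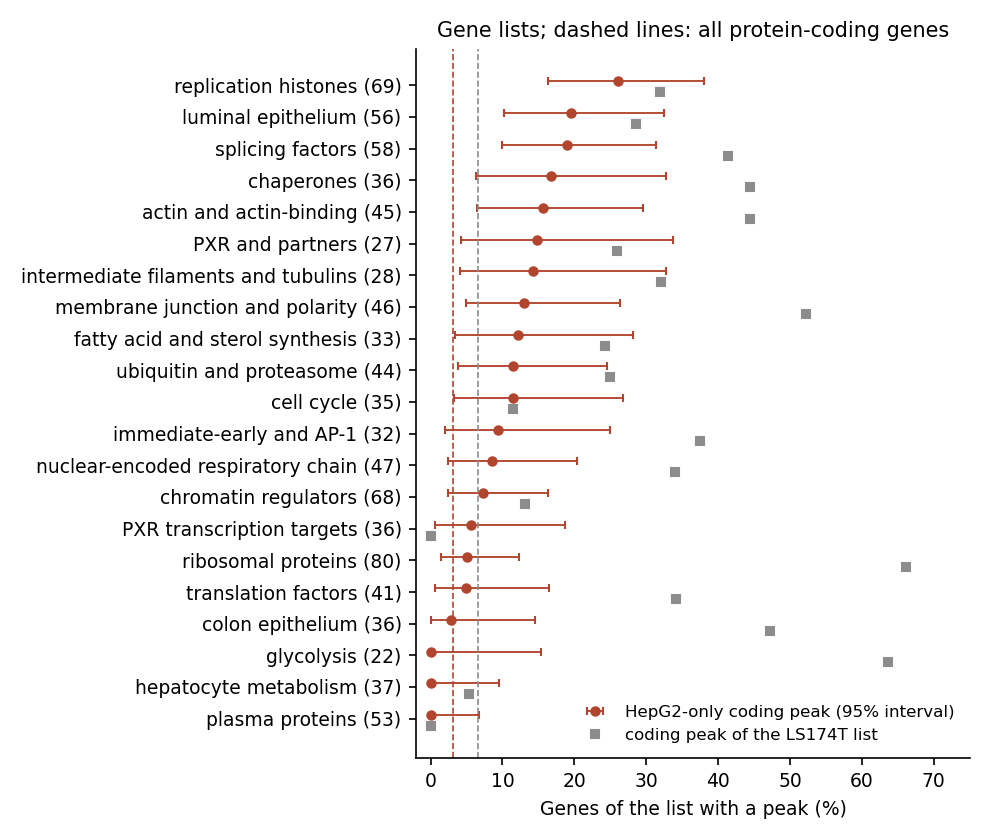
Percent of genes with a HepG2-only coding peak (circles, exact 95% binomial intervals) and with a coding peak of the LS174T list (squares) for 21 gene lists, with the number of measured genes in brackets. Dashed lines give all protein-coding genes, 3.1% and 6.56%. Histones stand at 26.1% and 31.9%, and glycolysis at 0% and 63.6%.

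The HepG2-only sites fell into different shapes, which the rule did not use. In 164 of the 641 (25.6%, interval 22.2 to 29.1%) the summit held at least 90% of all reads in the 10 kb window, and these are called lone stacks. That boundary was chosen after the values were seen. Lone stacks were 12.5% (52 of 417) of shared coding peaks and 9.47% (117 of 1236) of LS174T-only ones, a comparison not matched for depth. Among HepG2-only sites with 3 to 6 reads 108 of 199 were lone stacks, against 11 of 142 with 10 to 14 reads. Of the 164, 151 (92.1%) were exactly 200 bp wide, the length to which reads appear to have been extended, as were 208 of the other 477 (43.6%). In 128 of the 151 the summit lay within 2 bp of the middle of the peak. Their median was 5 reads, against 10 for the other 477 sites.

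The strand of the peak relative to the gene went with that shape. The gene strand was in the sequence table for 532 of the sites, and 446 of these (83.8%, interval 80.4 to 86.9%) lay on it. The other 86 (16.2%, interval 13.1 to 19.6%) lay on the opposite strand, against 25 of 341 (7.33%, interval 4.8 to 10.6%) shared coding peaks and 28 of 1006 (2.78%) LS174T-only ones. Of the 86 opposite sites 75 were lone stacks (87.2%, interval 78.3 to 93.4%), and of the 446 on the gene strand 62 were (13.9%, interval 10.8 to 17.5%). Turned round, 54.7% of lone stacks with known strand lay opposite to the gene and 2.78% (11 of 395) of the other sites did. Among sites with at least 10 reads the opposite share was 7.3% (17 of 233), against 6.93% (16 of 231) of shared peaks and 1.46% (8 of 548) of LS174T-only ones. With fewer than 10 reads it was 23.1% (69 of 299), against 8.18% (9 of 110) and 4.37% (20 of 458). The excess over shared peaks thus lay among shallow sites, while that over LS174T-only peaks was seen at both depths.

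CDC42SE1 shows both shapes in the same gene. Its plus-strand stack at chr1:151058781-151058980 held 76 reads (interval 59.9 to 95.1), all the reads of its window, while the gene, which encodes an effector of the GTPase CDC42, runs on the minus strand. A further site of 12 reads among 36 in its window lay on the gene's own strand. LRPAP1, a chaperone gene of the LDL receptor family, held an opposite stack of 48 of 50 window reads, and AJAP1, which encodes a junction protein, 32 of 32. IVD, an enzyme of leucine breakdown, held 23 of 23, RTF1 20 of 20 and HERPUD1 20 of 20. Stacks also lay on the gene strand, with 38 of 42 window reads in the golgin gene BLZF1, 23 of 25 in PUS3 and 21 of 21 in CDKAL1. A gene name beside an opposite stack gives only its place.

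**Figure D4:**
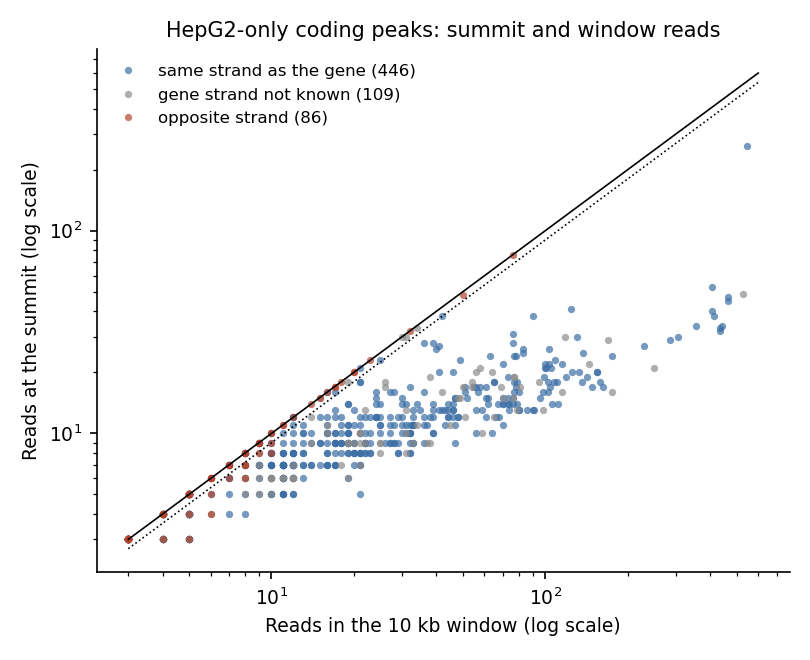
Reads at the summit against reads in the 10 kb window (both log axes) for the 641 HepG2-only coding peaks, by strand relative to the gene. The solid line marks equality and the dotted line 90%, and 75 of the 86 opposite-strand peaks lie on or above the dotted line.

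For 1 of the stacks the table names a small RNA. At chr14:77266231-77266430 on the plus strand 17 reads, all those of the window, formed a stack 200 bp wide opposite to NGB, the neuroglobin gene. Its first base, 77266231, is the first base of mature hsa-miR-1260a, printed above, within the MIR1260A hairpin at chr14:77266218-77266290. The summit lay past the hairpin, which is why the site counted as a coding peak. Of the 641 sites no other had its 5′ edge in an annotated small RNA gene. The edges of the peaks in PRC1 and UBQLN1 lay in lncRNA genes.

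VMP1 had more HepG2-only peaks than any other gene, 5, and all lay near its end. Their reads were 53, 38, 33, 32 and 34 from upstream to downstream, each within a window of 405 to 441 reads. The summits lay 3216, 2897, 1766, 1186 and 462 bp upstream of the MIR21 hairpin at chr17:59841266-59841337, on the same strand. The primary transcript of miR-21 is known to overlap the end of VMP1, and peaks cannot be divided between the transcripts here. No LS174T peak was found in VMP1. In all, 37 of 622 genes carried at least 2 HepG2-only peaks, and 3 carried at least 3, VMP1, MLPH and GATA3.

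Sites on the gene strand gathered a short way past gene starts. Of the 438 with an annotated start in the table, 204 (46.6%, interval 41.8 to 51.4%) had their summit within 500 bp past a start. The median distance among them was 225 bp (quartiles 189 and 313). Only 1 site lay in the first 100 bp and 149 between 101 and 300 bp. A stack of reads extended to 200 bp has its summit about 100 bp past the base where the reads begin, so the reads begin nearer the start than the summits. Of shared coding peaks 63.5% (198 of 312, interval 57.9 to 68.8%) lay within 500 bp past a start, with a median of 217 bp, and of LS174T-only peaks 39.4% (379 of 962, interval 36.3 to 42.6%), with a median of 210 bp. Taken from the outer start of the gene span alone, the share of HepG2-only sites was 37.6% (165 of 439), against 55.2% (171 of 310) of shared peaks. With at least 10 reads it was 34.4% (73 of 212), against 48.1% (101 of 210). Of HepG2-only sites opposite to the gene 12.9% (11 of 85, interval 6.64 to 22.0%) lay that near.

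**Figure D5:**
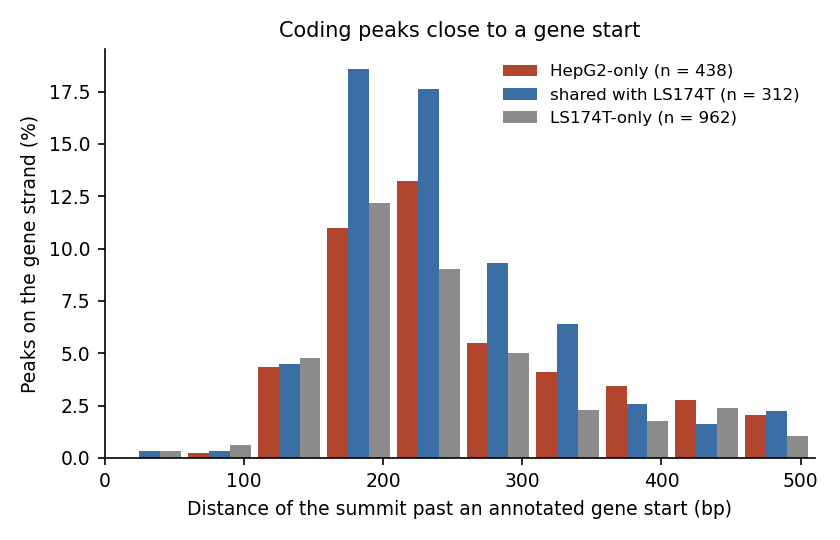
Percent of gene-strand coding peaks (y axis) by distance of the summit past an annotated gene start in bins of 50 bp (x axis). HepG2-only, shared and LS174T-only peaks gather between 101 and 300 bp, with 34.0%, 50.3% and 31.0% of their peaks there.

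Examples of the sites past a start were PSMD6, a proteasome subunit gene, with 28 reads at 193 bp, DKK1, a secreted inhibitor of Wnt signalling, with 25 at 200 bp, and BCAS4 with 25 at 162 bp. TRIM37, a ubiquitin ligase gene, held 24 reads at 296 bp, and APPBP2 23 at 274 bp. TUBA1B, an alpha-tubulin gene, held 17 at 134 bp and TOP1, DNA topoisomerase I, 17 at 210 bp. Gene ends held fewer, with 59 of 439 summits (13.4%) within 500 bp of the outer end of the gene span. Within 500 bp of its outer start there were 165 of 439 (37.6%), and a summit in a short gene can count in both. Among the sites near the end, MYL6, a myosin light chain gene, lay 17 bp before it with 13 reads. STARD10 lay 55 bp before it with 21, the NADPH oxidase subunit gene CYBA 82 bp with 21, and GNAS, the stimulatory G protein gene, 143 bp with 31. No site opposite to a gene lay within 500 bp of the end, 0 of 85.

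The promoters of the near-start sites differed between histone and other genes. Histone genes are short, so a near-start summit can also lie near the end, as in H3C8 (462 bp past the start, 33 bp before the end). GGGCGG, searched on both strands from 250 bases before to 50 after the start, was found for 155 of 189 non-histone promoters (82.0%, interval 75.8 to 87.2%), against 56.3% of 22199 promoters of protein-coding genes. Their median content of G and C was 68.3%, against 62.3%. CCAAT was in 36.5%, near the 34.7% of all promoters, and TATAAA in 3.17%, against 9.47%. Of 15 histone promoters 12 held CCAAT (80.0%), 9 TATAAA (60.0%) and 3 GGGCGG (20.0%), with a median of 42.3% G and C. In the sequences printed above BAMBI has 4 copies of GGGCGG and H3C7 none, while H3C7 has 2 of TATAAA that overlap on opposite strands. These matches describe the DNA of the genes and not sites of binding, and the comparison is not matched for how strongly the genes are transcribed.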

How the data were processed

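The data were 3 of the 4 deposited peak lists of 9 eCLIP samples. Per the submitters' processing notes the authors used cutadapt, BWA and MACS2 with hg38 and mm10, and versions and settings are not given in the sources used here. Per the peak names, strands were called separately. Each deposited list gives per peak a score, a fold enrichment (a ratio), and a −log10 p-value and q-value, all the authors' own. In every peak the score was the −log10 q times 10 without its decimals.

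Summit reads and background were solved jointly. The fold is reads plus 1 over background plus 1, the p-value is a Poisson tail above those reads, and the background moves in steps of 0.02 (window of 10000 bp and extension of 200 bp, both inferred). A unique solution was found for 1557 of 1557 HepG2 and 2102 of 2103 WT-named peaks. Tested on simulated HepG2 peaks, 1447 of 1447 were recovered. The simulated peaks were made with the same formulas and the same step, so this checks the solving alone. It cannot check the inferred window and extension or the Poisson model. Genes were assigned by summit with the RefSeq table of GRCh38.p14, and strand was taken from the RefSeq promoter table (79.0% of protein-coding genes). Named genes were the 25 with most reads, 10 of highest fold, up to 6 per list, those with most peaks, the 5 with fewest reads and NR1I2, and other named genes (near-start, near-end and rule-edge examples, the remaining luminal members, the shallowest histones and opposite-strand members) were picked after their values were seen. The members and all 21 gene lists were chosen with earlier results of these data known. Alternatives were a −log10 q of at least 5, at least 10 reads, other overlap rules, gene-strand assignment and leaving out lone stacks. Python 3.11.15, pandas 2.3.3, scipy 1.17.1 and matplotlib 3.10.9 were used. The values of 1 gene counted in a list are not reported here.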

Additional observations from a re-analysis of the deposited data

How the results depend on the processing

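With a −log10 q of at least 5, 376 HepG2-only coding peaks were left of 641, making up 51.2% of such HepG2 coding peaks, with a median of 12 reads and 88.2% on the gene strand. With at least 10 reads there were 280, or 49.2%, with a median of 14 reads. Of these, 92.7% lay on the gene strand, 78.9% in genes with no LS174T peak and 19.8% within 500 bp of the gene end. Without lone stacks, an alternative chosen after seeing the data, 477 were left, or 56.7%, with a median of 10 reads and 97.2% on the gene strand. Assigning only genes on the strand of the peak made the gene-strand share 100% by construction. Counting an overlap of at least 50%, a gap under 500 bp or either strand as shared gave 662, 622 and 638 peaks and moved no other share beyond its interval. The share within 500 bp of the gene start stayed between 34.4% and 41.4% in all 7 alternatives. No paired analysis was possible because each group has 1 peak list and the lists carry no values per library. For the same reason no library could be left out.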

Other observations

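Over all chromosomes there were 3.2 HepG2-only coding peaks per 100 protein-coding genes, and no test of their spread was run. Chromosomes 9 and 16 each held 5.27 of them per 100 protein-coding genes, with 1.54 and 2.34 shared coding peaks per 100 genes, and chromosome 20 held 4.1, with 1.86. The lowest rate among chromosomes 1 to 22 and X was 1.53, on X. In stretches of 5 Mb, a size chosen after seeing the data, chr6:25000001-30000000 with 118 genes held 18, all in histone genes, beside 16 shared and 1 LS174T-only. The stretch chr17:55000001-60000000 with 49 genes held 9 in 5 genes, VMP1, TRIM37, SRSF1, RAD51C and TEX14, beside 2 shared and 1 LS174T-only, with 255 reads among them. The first 5 Mb of chromosome 16 with 197 genes held 12, among them SRRM2 and RHOT2, beside 3 shared and 10 LS174T-only. Chromosome 20 held 22 HepG2-only coding peaks, among them those in NCOA3, PARD6B, BCAS4, GNAS and ZNF217, with others in genes such as RBM39, CENPB and TOP1.

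Besides MIR1260A and MIR21, other microRNA hairpins lay near HepG2-only peaks. The MCM7 site of 18 reads lay 752 bp from the MIR25 hairpin and 1185 bp from that of MIR106B, and the TRIM28 sites of 29 and 21 reads lay 277 and 754 bp from MIR6807. The genes with a HepG2-only peak had a median length of 40991 bp, against 24092 bp for all protein-coding genes. Sites were assigned by gene span, so a longer gene can hold more summits under the rule. The lengths of genes with shared or LS174T-only peaks were not worked out.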
